A study of Mus musculus with 8 samples.

Results

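Chemokines and their receptors were represented by 56 genes in the ventral lumbar spinal cord arrays, 34 of them ligands and 22 receptors. They were chosen by gene symbol (CC, CXC, CX3C and C ligands, their receptors and the atypical receptors), from transcript clusters with exactly 1 symbol in the platform annotation. A transcript cluster is the array's unit for 1 gene. The 56 genes lay on 57 of 41345 transcript clusters, and for Ccl27a, the gene with more than 1, the cluster of higher mean signal was used.

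The question was which transcripts differ in the cord when mutant SOD1, a cause of familial amyotrophic lateral sclerosis, is made in muscle. MLC/SOD1G93A mice carry a SOD1G93A transgene that the myosin light chain (MLC) promoter drives in muscle, and control FVB mice lack it. Both groups are of the FVB strain and were 120 days old, and each had 4 arrays hybridized with total RNA of the ventral lumbar cord. As a model, the mutant is driven in skeletal muscle and not in the cord that was measured. Whether every replicate number stands for an animal of its own is not in the labels, and the p-values therefore cover the spread among these samples, which may be technical.

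Chemokines are small secreted or membrane-bound proteins that bind to heparan sulfate on cell surfaces and steer migrating cells through receptors coupled to G proteins. Inflammatory ligands bring monocytes, neutrophils and T cells into injured tissue, and homeostatic ligands such as Cxcl12 and Cx3cl1 are made in the resting nervous system. In the cord Cx3cl1 is made by neurons and its receptor Cx3cr1 by microglia, and the atypical receptors take up ligands without coupling to G proteins.

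In MLC/SOD1G93A cord 7 of the 56 genes were lower than in FVB at a limma unadjusted p under 0.05, namely Ccl9, Ccr8, Ccl17, Cx3cr1, Cxcl13, Cxcl12 and Ccl3, and 1 was higher, Ccl11. These were 12.5% and 1.79% of the members. Over all transcript clusters tested, 3.08% were lower and 3.61% higher at the same threshold. These include clusters without a symbol. With 1 cluster per gene symbol, as for the members, 3.36% of 22180 genes were lower and 2.81% higher. No member passed after Benjamini-Hochberg adjustment over all clusters (limma, smallest adjusted p = 0.684), and neither did any of the 41345 clusters (0%). In an exact two-sided permutation test of each gene over the arrays, whose smallest possible p is 0.0286, Ccl9 and Ccr8 reached that value and the other 6 lay at 0.0857 or 0.143. By the methods' t-test 4 members had an unadjusted p under 0.05 (Ccl9, Ccl17, Ccr8 and Cx3cr1) and 0 an adjusted one.

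The differences were small. The largest among the members was 1.31-fold (Ccl11), and none of the 56 reached the fold of 1.5 that the study's methods required beside an unadjusted p under 0.05. By the methods' t-test 267 of all 41345 clusters did, so few clusters of any kind passed. By sign 35 members were lower and 21 higher, with a median log2 difference of −0.054 (MLC/SOD1G93A minus FVB), beside 0.0041 over all clusters. In Ccl9 and Ccr8, 2 of the 56, every MLC/SOD1G93A array lay under every FVB array, beside 2.1% of all clusters, and in 0 every MLC/SOD1G93A array lay above, beside 2.11%. The count of 8 was 4 when MLC/SOD1G93A replicate 3 or FVB replicate 1, 2 or 3 was left out. In bulk tissue fewer cells of a type and less RNA per cell cannot be told apart.

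The 95th percentile of the mean log2 signal of 1405 clusters for olfactory and vomeronasal receptors, genes of the nose, was 5.16 and served as a dim reference. It is a description, since the signals of different clusters do not rank transcript levels. Above it lay 26 members (46.4%, beside 62.7% of 22180 genes), of which 16 were lower and 10 higher. At an unadjusted p under 0.05 there were 6 lower and 1 higher (23.1% and 3.85%, beside 3.72% and 2.72% of the 13914 genes above the dim reference). At or under it lay 30, of which 19 were lower and 11 higher, and Ccr8 was the 1 with an unadjusted p under 0.05.

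**Figure D1:**
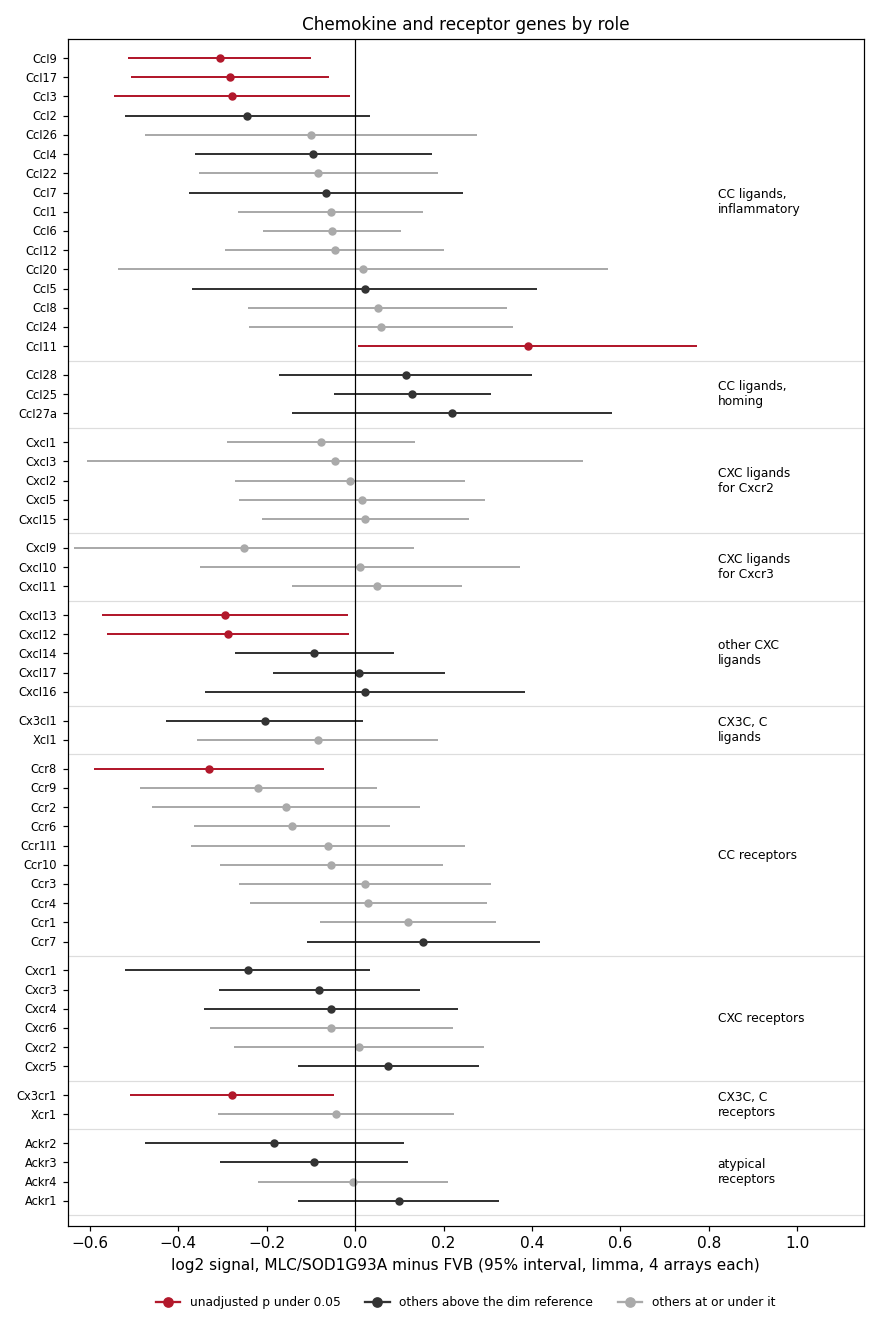
Log2 difference of each of the 56 genes (MLC/SOD1G93A minus FVB, 4 arrays each) with its 95% limma interval, grouped by role. Red marks the 8 genes with an unadjusted p under 0.05, 7 left of 0 and Ccl11 right of it, and grey marks genes at or under the dim reference.

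Among 16 CC ligands of inflammation 11 were lower and 5 higher, with a median difference of −0.060. Ccl9 (transcript cluster 17266952), a mouse ligand of Ccr1, had log2 signals of 6.17, 6.15, 6.01 and 6.02 in MLC/SOD1G93A cord, against 6.34, 6.35, 6.59 and 6.28 in FVB cord. The groups did not overlap. The means were 6.09 ± 0.08 in MLC/SOD1G93A and 6.39 ± 0.14 in FVB (SD, n = 4 each), a difference of −0.31 ± 0.09 (SE) or 1.24-fold (exact permutation p = 0.0286, limma adjusted p = 0.684). Ccl9 stayed under an unadjusted p of 0.05 whichever single array was left out, at −0.34 to −0.24. Of the caudal Hox genes, which mark position along the cord, 8 of 10 were higher in MLC/SOD1G93A cord at an unadjusted p under 0.05, beside 3.61% of all clusters. With the mean of these Hox genes in the fit Ccl9 was at −0.12 and above that p. It was also above it without the 3 arrays of high Xist, a marker of sex, at −0.27. The Hox mean itself largely followed genotype, with every MLC/SOD1G93A array but replicate 2 above all FVB arrays. For Ccl9 and the other genes, a fit with this mean therefore cannot separate cord position from genotype.

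Ccl17 (17504138), a ligand of Ccr4 that attracts T cells, had 5.50, 5.54, 5.42 and 5.35 in MLC/SOD1G93A cord, against 5.76, 5.84, 5.49 and 5.84 in FVB cord. Here FVB replicate 3 lay among the MLC/SOD1G93A arrays and the other FVB arrays above all of them. The difference was −0.28 ± 0.10 (SE), 1.22-fold (exact permutation p = 0.0857, adjusted p = 0.684). Without MLC/SOD1G93A replicate 4, FVB replicate 2 or FVB replicate 4 the unadjusted p was just above 0.05. It was also above 0.05 without the 3 arrays of high Xist (−0.18) and without the 4 of high sensory ganglion markers (−0.24). Its neighbour on chromosome 8, Ccl22, the other ligand of Ccr4, was at 4.60 in MLC/SOD1G93A and 4.68 in FVB on average, under the dim reference (−0.083, adjusted p = 0.921).

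Ccl3 (17266967), a ligand of Ccr1 made by activated myeloid cells, had 5.03, 5.38, 5.10 and 4.90 in MLC/SOD1G93A cord, against 5.30, 5.44, 5.52 and 5.26 in FVB cord. MLC/SOD1G93A replicate 2 lay within the FVB range and the other 3 below it, close to the dim reference. The difference was −0.28 ± 0.12 (SE), 1.21-fold (exact permutation p = 0.0857, adjusted p = 0.732), and 2 of the 8 fits that left out an array kept an unadjusted p under 0.05. It was above that p at −0.078 with the caudal Hox mean in the fit, at −0.23 with high or low Xist as a block and at −0.21 without the 3 arrays of high Xist. By the methods' t-test Ccl3 was above it too. Ccl4, a relative of Ccl3 on chromosome 11, was at 5.22 in MLC/SOD1G93A and 5.31 in FVB, a difference of −0.095 (adjusted p = 0.911).

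Ccl11 (17254053), the eosinophil attractant eotaxin, was the 1 member higher at an unadjusted p under 0.05. It had 6.79, 7.11, 6.56 and 6.45 in MLC/SOD1G93A cord, against 6.18, 6.12, 6.60 and 6.46 in FVB cord. MLC/SOD1G93A replicates 1 and 2 were above every FVB array, and replicates 3 and 4 lay within the FVB range. The difference was 0.39 ± 0.17 (SE), 1.31-fold (exact permutation p = 0.143, adjusted p = 0.742). MLC/SOD1G93A replicates 1 and 2 also had high sensory ganglion markers (list means 7.01 and 7.00), as did FVB replicates 2 and 4 (6.43 and 6.62), and the part of these markers in the Ccl11 value was not tested. Leaving out 1 array gave 0.26 to 0.48, with 3 of the 8 fits under an unadjusted p of 0.05. It was above that p at 0.12 with those 4 arrays left out, at 0.35 with the sensory ganglion mean in the fit, at 0.57 with the caudal Hox mean in the fit, with the replicate number as a block and by the methods' t-test.

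Ccl2, the main attractant of monocytes through Ccr2, had 5.34, 5.08, 5.35 and 5.27 in MLC/SOD1G93A cord, against 5.35, 5.50, 5.81 and 5.35 in FVB cord. MLC/SOD1G93A replicate 3 reached the lower edge of the FVB range and the other 3 lay below it. The difference of −0.24 had a 95% interval of −0.52 to 0.03 (adjusted p = 0.775). It was −0.14 without FVB replicate 3 and −0.095 with the caudal Hox mean in the fit. Ccl5, a T cell attractant, had 5.65, 5.69, 5.79 and 6.08 in MLC/SOD1G93A cord, against 5.35, 5.93, 5.74 and 6.10 in FVB cord, so the values of both genotypes were interleaved. The difference was 0.022 (interval −0.37 to 0.41, adjusted p = 0.988). Ccl7, a further monocyte attractant, was at 5.72 in MLC/SOD1G93A and 5.79 in FVB (−0.066, adjusted p = 0.948). The 8 members of this group at or under the dim reference (Ccl1, Ccl6, Ccl8, Ccl12, Ccl20, Ccl22, Ccl24 and Ccl26) each had an unadjusted p above 0.05.

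The 3 homing ligands were higher by sign, with no unadjusted p under 0.05 on the clusters used. Ccl27a, a ligand of Ccr10 known from skin, had 8.07, 7.44, 7.45 and 7.40 in MLC/SOD1G93A cord, against 7.40, 7.37, 7.19 and 7.51 in FVB cord, and MLC/SOD1G93A replicate 1 stood alone. The difference was 0.22 (adjusted p = 0.84), and 0.060 without that array. Its values were the same on all 8 arrays as those of 2 clusters with several symbols, so copies of the gene cannot be told apart there. The other Ccl27a cluster had 6.08, 6.38, 6.05 and 6.38 in MLC/SOD1G93A cord, against 5.65, 5.90, 5.98 and 6.11 in FVB cord (0.31 ± 0.13 SE, exact permutation p = 0.0857, adjusted p = 0.725). There 1 FVB array, replicate 4, reached into the MLC/SOD1G93A range, and the unadjusted p was under 0.05. The mean of both clusters differed by 0.27, also under that p, and it holds the array that stood alone. Among clusters of several symbols, 7 led by Ccl27a or Ccl27b differed by 0.080 to 0.22, with 0 under that p. In 3 led by Gm21953, with Ccl27a among their symbols, the differences were 0.042 to 0.13, with 0 under it. A further 1, with Ccl27b among its symbols, was at 0.70, also above that p.

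Ccl25, which guides T cells to gut and thymus through Ccr9, had 6.32, 6.31, 6.21 and 6.45 in MLC/SOD1G93A cord, against 6.23, 6.26, 6.19 and 6.10 in FVB cord. The ranges overlapped through MLC/SOD1G93A replicate 3 (difference 0.13, adjusted p = 0.799). Ccl28, a mucosal ligand of Ccr10, differed by 0.11 (adjusted p = 0.899).

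CXC ligands that act on Cxcr2 and attract neutrophils (Cxcl1, Cxcl2, Cxcl3, Cxcl5 and Cxcl15) were all under the dim reference, with 3 lower and 2 higher and differences of −0.077 to 0.023. The interferon-induced ligands of Cxcr3 (Cxcl9, Cxcl10 and Cxcl11) were also under it. Cxcl10 had 4.77, 4.80, 5.11 and 4.91 in MLC/SOD1G93A cord, against 4.75, 4.58, 5.30 and 4.93 in FVB cord, with the MLC/SOD1G93A arrays inside the FVB range (0.012, interval −0.35 to 0.37, adjusted p = 0.993). Cxcl9 differed by −0.25 (adjusted p = 0.819).

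The other 5 CXC ligands all lay above the dim reference. Cxcl12 (17462149), which holds and guides stem cells, leukocytes and migrating neurons through Cxcr4, had 7.93, 7.79, 7.89 and 8.23 in MLC/SOD1G93A cord, against 8.28, 8.06, 8.44 and 8.21 in FVB cord. MLC/SOD1G93A replicates 1 to 3 lay under every FVB array and replicate 4 within their range. The difference was −0.29 ± 0.12 (SE), 1.22-fold (exact permutation p = 0.0857, adjusted p = 0.731), and 2 of the 8 fits that left out an array kept an unadjusted p under 0.05. It was above that p at −0.23 with the caudal Hox mean in the fit and at −0.31 without the arrays of high sensory ganglion markers. By the methods' t-test and with weights for the arrays it was above that p too.

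Cxcl13 (17439367), which attracts B cells through Cxcr5, had 5.80, 5.52, 5.38 and 5.52 in MLC/SOD1G93A cord, against 6.06, 5.72, 5.93 and 5.68 in FVB cord. MLC/SOD1G93A replicate 1 lay within the FVB range and the other 3 below it. The difference was −0.29 ± 0.12 (SE), 1.23-fold (exact permutation p = 0.0857, adjusted p = 0.731), and 3 of the 8 fits that left out an array kept an unadjusted p under 0.05. It was above that p at −0.12 with the caudal Hox mean in the fit, at −0.24 with Xist as a block, at −0.25 without the arrays of high Xist and at −0.30 with the sensory ganglion mean in the fit. By the methods' t-test Cxcl13 was above it too.

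Cxcl14, a ligand of epithelia and of some neurons, had 8.91, 8.74, 8.85 and 8.99 in MLC/SOD1G93A cord, against 9.01, 8.88, 9.01 and 8.96 in FVB cord. The ranges overlapped (−0.092, adjusted p = 0.868). Cxcl16, the membrane-bound ligand of Cxcr6, had 6.73, 6.44, 6.59 and 6.64 in MLC/SOD1G93A cord, against 6.55, 6.20, 6.99 and 6.57 in FVB cord, and the MLC/SOD1G93A arrays fell inside the FVB range (0.023, adjusted p = 0.986). Cxcl17 differed by 0.0090 (adjusted p = 0.99).

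**Figure D2:**
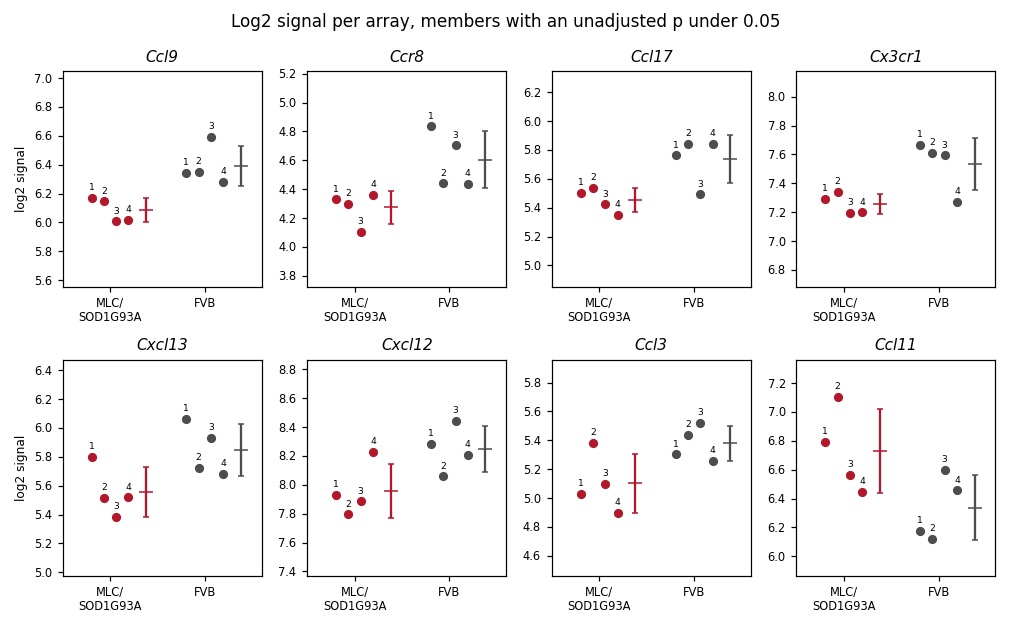
Log2 signal of the 8 genes with an unadjusted p under 0.05, MLC/SOD1G93A on the left and FVB on the right of each panel. Points are arrays with their replicate numbers, the bar beside them is the mean ± SD (n = 4), and every panel spans the same height. Ccl9 and Ccr8 show no overlap, and each of the others has at least 1 array inside the range of the other genotype.

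Cx3cr1 (17532268), the fractalkine receptor that marks microglia in the cord, had 7.29, 7.34, 7.20 and 7.20 in MLC/SOD1G93A cord, against 7.66, 7.61, 7.60 and 7.27 in FVB cord. FVB replicates 1 to 3 were above every MLC/SOD1G93A array, and FVB replicate 4 lay among them. The difference was −0.28 ± 0.10 (SE), 1.21-fold, with a 95% interval of −0.51 to −0.05 (exact permutation p = 0.0857, adjusted p = 0.686). The unadjusted p was above 0.05 when FVB replicate 1, 2 or 3, or replicate 3 or 4 of MLC/SOD1G93A, was left out. With the caudal Hox mean in the fit the difference was −0.064.

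Its ligand Cx3cl1, held on neuronal membranes and released by cleavage, had 8.66, 8.50, 8.35 and 8.75 in MLC/SOD1G93A cord, against 8.82, 8.81, 8.70 and 8.75 in FVB cord. MLC/SOD1G93A replicates 1 to 3 lay under every FVB array. The difference was −0.20 ± 0.10 (SE), with an interval of −0.42 to 0.02 (exact permutation p = 0.0571, adjusted p = 0.76). The C ligand Xcl1 and its receptor Xcr1, which draw dendritic cells, were under the dim reference and differed by −0.085 and −0.043.

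Microglia, the cells that carry Cx3cr1, were followed by a list of 16 other measured genes, of which 15 were lower and 4 at an unadjusted p under 0.05 (P2ry12, P2ry13, Sall1 and Csf1r), or 25.0% beside 3.08% of all clusters. The mean of the list was 6.22 to 6.37 in MLC/SOD1G93A arrays and 6.37 to 6.60 in FVB arrays, and its median difference was −0.19. The part of the list's shift in the Cx3cr1 value was not tested.

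For Cxcl12, which meningeal and vascular cells also make, 4 marker lists were read. Of 11 meningeal fibroblast markers 8 were lower, 5 of them at an unadjusted p under 0.05 (45.5%, beside 3.08% of all clusters), and 1 was higher at that threshold (9.09%, beside 3.61%). Their mean was 7.18 to 7.74 in MLC/SOD1G93A arrays and 7.46 to 8.12 in FVB arrays. Of 9 endothelial markers 9 were lower, 2 at that threshold (22.2%), with means of 6.69 to 6.88 in MLC/SOD1G93A arrays and 6.83 to 7.27 in FVB arrays. Of 7 mural cell markers 5 were lower and 2 higher, 0 at that threshold, with means of 7.17 to 7.43 in MLC/SOD1G93A arrays and 7.23 to 7.60 in FVB arrays. Of 7 markers of lymphatic and venous endothelium 4 were lower and 3 higher, 2 and 1 at that threshold, with means of 6.13 to 6.27 in MLC/SOD1G93A arrays and 6.10 to 6.46 in FVB arrays. The part of these lists in the Cxcl12 and Ccl11 values was not tested.

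Both receptors for Cxcl12 were measured. Cxcr4, which signals, had 6.38, 6.10, 6.20 and 6.52 in MLC/SOD1G93A cord, against 6.62, 6.24, 6.22 and 6.35 in FVB cord. Ackr3, which takes Cxcl12 up, had 6.38, 6.21, 6.57 and 6.32 in MLC/SOD1G93A cord, against 6.38, 6.42, 6.55 and 6.50 in FVB cord. In both genes the groups overlapped. Cxcr4 differed by −0.054 (interval −0.34 to 0.23, adjusted p = 0.955) and Ackr3 by −0.093 (−0.30 to 0.12, adjusted p = 0.887).

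Cxcr5, the receptor for Cxcl13 on B cells, had 5.13, 5.32, 5.41 and 5.13 in MLC/SOD1G93A cord, against 5.11, 5.11, 5.24 and 5.22 in FVB cord (0.075, adjusted p = 0.908). Cxcr3, which T cells use to follow Cxcl9 and Cxcl10, had 5.44, 5.45, 5.41 and 5.38 in MLC/SOD1G93A cord, against 5.71, 5.59, 5.29 and 5.40 in FVB cord (−0.081, adjusted p = 0.91). Both overlapped between genotypes and lay near the dim reference. Cxcr1, a neutrophil receptor, differed by −0.24 (adjusted p = 0.775), Cxcr2 by 0.0096 and Cxcr6 by −0.053.

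**Figure D3:**
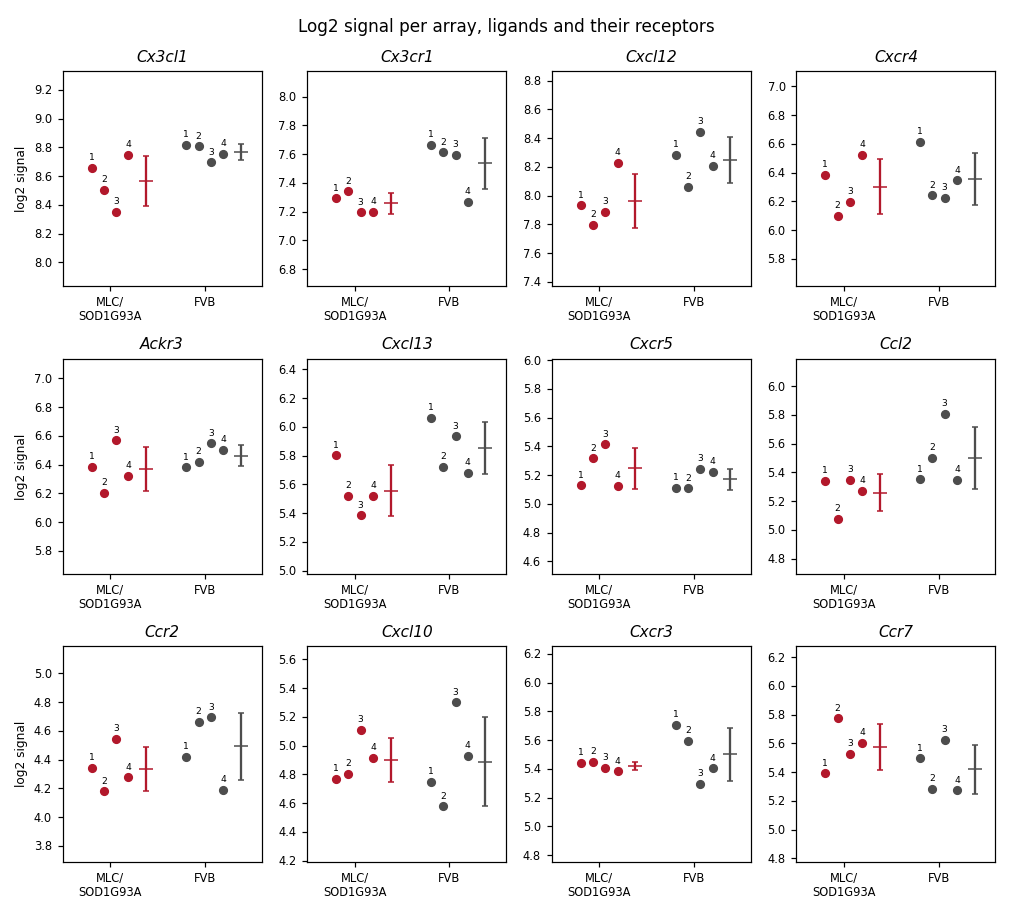
Log2 signal per array of ligands and the receptors they bind (Cx3cl1 and Cx3cr1, Cxcl12 with Cxcr4 and Ackr3, Cxcl13 and Cxcr5, Ccl2 and Ccr2, Cxcl10 and Cxcr3) and of Ccr7, MLC/SOD1G93A left and FVB right, with the mean ± SD (n = 4) beside the points. Cx3cl1 and Cx3cr1 both sit lower in MLC/SOD1G93A on most arrays, but their ranges overlap, as do those of Cxcr4, Ackr3, Cxcr5 and Cxcr3.

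Of 10 CC receptors 6 were lower and 4 higher, and all but Ccr7 lay under the dim reference. Ccr8 (17523158), the receptor for Ccl1 on T cells, had 4.33, 4.30, 4.11 and 4.36 in MLC/SOD1G93A cord, against 4.83, 4.44, 4.70 and 4.44 in FVB cord. The groups did not overlap, at signals under the dim reference on every array. The difference was −0.33 ± 0.11 (SE), 1.26-fold (exact permutation p = 0.0286, adjusted p = 0.684), and each of the 8 fits that left out an array kept an unadjusted p under 0.05. It was above that p with the caudal Hox mean in the fit (−0.16) and without the 3 arrays of high Xist (−0.34).

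Ccr2, the receptor of inflammatory monocytes for Ccl2, had 4.34, 4.18, 4.54 and 4.28 in MLC/SOD1G93A cord, against 4.42, 4.66, 4.69 and 4.19 in FVB cord. It overlapped between genotypes, all under the dim reference (−0.16, interval −0.46 to 0.14, adjusted p = 0.868). Ccr7, which brings dendritic and T cells to lymph nodes, had 5.39, 5.77, 5.53 and 5.60 in MLC/SOD1G93A cord, against 5.50, 5.29, 5.62 and 5.27 in FVB cord (0.15, adjusted p = 0.844). Its groups overlapped too. With the caudal Hox mean in the fit it was at 0.36 and under an unadjusted p of 0.05. Ccr9 was the next lower CC receptor at −0.22 (adjusted p = 0.777) and Ccr1 the next higher at 0.12 (adjusted p = 0.839), while Ccr3, Ccr4, Ccr6, Ccr10 and Ccr1l1 differed by −0.14 to 0.030.

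The ligands of Ccr7, Ccl19 and Ccl21, are present in the mouse genome in several near-identical copies, and their clusters carry several symbols, so they were not among the 56 genes. The 9 clusters of Ccl21 copies held 5 distinct sets of values, with differences of −0.33 to −0.18, and 4 of the clusters, which held 3 of these sets, were lower at an unadjusted p under 0.05, beside 3.08% of all clusters. The 12 clusters of Ccl19 copies differed by 0.0079 to 0.14, with 0 under that p. The probes may not separate the copies.

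Of the 4 atypical receptors, 3 were lower and 1 higher. Ackr1, found on venules and red cells, where it carries many ligands, had 8.85, 9.03, 8.73 and 8.60 in MLC/SOD1G93A cord, against 8.74, 8.75, 8.65 and 8.68 in FVB cord. The groups overlapped (0.098, interval −0.13 to 0.32, adjusted p = 0.888). Ackr2, which clears inflammatory CC ligands, differed by −0.18 (adjusted p = 0.833), and Ackr4, which clears homing ligands, by −0.0045 under the dim reference.

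Many chemokine genes lie close together on the chromosomes. On chromosomes 11, 5 and 9 both signs occurred. On chromosome 8 the neighbours Ccl22, Cx3cl1 and Ccl17 were all lower, and Ccl25, farther off, was higher. On chromosome 11, 8 of 11 CC ligands were lower and 3 higher, with Ccl9 and Ccl3 lower and Ccl11 higher at an unadjusted p under 0.05, beside 3.08% lower and 3.61% higher of all clusters. On chromosome 5, 5 of 9 CXC ligands were lower, and Cxcl13, the 1 above the dim reference, was also the 1 at that threshold. On chromosome 9, 6 of 9 receptors of the CC, CX3C and C classes were lower, 2 of them (Ccr8 and Cx3cr1) at that threshold.

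Promoter sequence was read for the 42 of 56 members that had an entry in a RefSeq table (build GRCm38.p6), as the 250 bases before each transcription start. The last 100 of them are shown for 4 genes lower at an unadjusted p under 0.05 (Ccl9, Cx3cr1, Cxcl12 and Cxcl13) and for Cxcl1 and Cxcl2, which hold a kappaB match as Ccl9 does and differed by −0.077 and −0.012. Capitals mark matches to the kappaB motif or the TATA box letters TATAAA, each on either strand. Ccl9 lies at chr11:83578637-83578736 (minus strand), Cx3cr1 at chr9:120068297-120068396 (minus), Cxcl12 at chr6:117168435-117168534 (plus), Cxcl13 at chr5:95956839-95956938 (plus), Cxcl1 at chr5:90891145-90891244 (plus) and Cxcl2 at chr5:90903799-90903898 (plus), and each runs 5′ to 3′ up to the start.
Ccl9: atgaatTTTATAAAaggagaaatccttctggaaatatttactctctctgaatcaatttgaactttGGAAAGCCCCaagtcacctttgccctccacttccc
Cx3cr1: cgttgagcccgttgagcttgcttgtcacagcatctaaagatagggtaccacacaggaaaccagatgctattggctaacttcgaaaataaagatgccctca
Cxcl12: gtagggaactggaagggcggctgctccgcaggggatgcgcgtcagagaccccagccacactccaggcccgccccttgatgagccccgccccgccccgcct
Cxcl13: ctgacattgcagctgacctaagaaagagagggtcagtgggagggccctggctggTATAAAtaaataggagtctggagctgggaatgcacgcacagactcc
Cxcl1: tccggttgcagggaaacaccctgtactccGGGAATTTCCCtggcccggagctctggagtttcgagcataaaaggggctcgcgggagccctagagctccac
Cxcl2: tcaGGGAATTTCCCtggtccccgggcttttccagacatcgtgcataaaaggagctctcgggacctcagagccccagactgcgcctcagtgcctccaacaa

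A kappaB match, the binding motif of NF-kappaB, stood in 9 of the 42 members (21.4%), beside 3.9% of 32851 promoters of the same length. The 42 members had 46 promoters, and a member counted if any of its promoters matched, while the 32851 were counted singly. The 9 members with a kappaB match were Ackr2, Ccl9, Ccl20, Ccr3, Ccr6, Cxcl1, Cxcl2, Cxcl3 and Cxcl10. In Cxcl1 and Cxcl2 it is a pair of overlapping matches 1 base apart. Of these 9 genes Ccl9 had an unadjusted p under 0.05 and the other 8 did not. TATAAA stood in 14 members (33.3%), beside 12.4% of all promoters, and in Ccl9 the capitals TTTATAAA hold it on both strands. The STAT motif TTCNNNGAA stood in 4 members (9.52%, beside 7.02%), the AP-1 motif TGANTCA in 5 (11.9%, beside 6.75%), the PU.1 motif GAGGAAGT in 1 (2.38%, beside 2.44%) and the interferon-stimulated response element (ISRE) in 2 (4.76%, beside 2.98%). Of the 8 members with an unadjusted p under 0.05, 7 had an entry, and among them kappaB matched 1 and TATAAA 2.

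Genes that act around the chemokines were read from 4 lists, with the same background of 3.08% lower and 3.61% higher. Of 37 measured genes of chemokine signal transduction 22 were lower and 15 higher, and 1 was higher at an unadjusted p under 0.05. That was Grk3, a kinase that turns off activated receptors, with 7.43, 7.44, 7.46 and 7.59 in MLC/SOD1G93A cord, against 7.20, 7.33, 7.24 and 7.19 in FVB cord. The groups did not overlap, and the difference was 0.24 ± 0.07 (SE, exact permutation p = 0.0286, adjusted p = 0.684). In 3 of the 37 genes, Grk3 among them, every MLC/SOD1G93A array lay above every FVB array (8.11%, beside 2.11% of all clusters). In 0 of them every MLC/SOD1G93A array lay under, beside 2.1%. Pik3r5, a subunit of the phosphoinositide kinase of leukocytes, differed by −0.20 (adjusted p = 0.747) and Prex1, which activates Rac, by −0.13 (adjusted p = 0.776).

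Of 14 measured genes that process or present chemokines, 9 were lower and 5 higher, 4 and 1 at an unadjusted p under 0.05. Hs3st1, an enzyme of heparan sulfate, had 6.13, 6.15, 6.39 and 6.28 in MLC/SOD1G93A cord, against 6.58, 6.52, 6.76 and 6.48 in FVB cord, without overlap (−0.35 ± 0.09 SE, exact permutation p = 0.0286, adjusted p = 0.684). Mmp14, a membrane metalloproteinase, had 7.31, 7.19, 7.16 and 7.26 in MLC/SOD1G93A cord, against 7.55, 7.41, 7.98 and 7.53 in FVB cord, also without overlap (−0.39 ± 0.12 SE, exact permutation p = 0.0286, adjusted p = 0.684). In 2 of the 14 genes every MLC/SOD1G93A array lay under every FVB array (14.3%, beside 2.1% of all clusters). Tff2, a trefoil factor, was under the dim reference at −0.36 (adjusted p = 0.684). Adam10, which sheds Cx3cl1 and Cxcl16, was the 1 higher at that threshold, at 0.23 (adjusted p = 0.731).

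Of 17 chemoattractants and relatives outside the rule 12 were lower and 5 higher, 1 at an unadjusted p under 0.05. Csf1, a growth factor of microglia and macrophages, had 7.68, 7.33, 7.46 and 7.69 in MLC/SOD1G93A cord, against 7.96, 7.73, 7.87 and 7.70 in FVB cord, with the groups apart by a narrow margin (−0.28, exact permutation p = 0.0286, adjusted p = 0.711). It was the 1 of 17 with the groups apart (5.88%, beside 2.1% of all clusters apart and lower). Mif, a cytokine that also binds Cxcr4, differed by −0.20 (adjusted p = 0.749) and Fpr2, a receptor for formyl peptides, by −0.43 (adjusted p = 0.767). Of 21 upstream cytokines and regulators 15 were lower and 6 higher, with Il4 lower at −0.28 (adjusted p = 0.684) but under the dim reference, Ifngr1, the interferon-gamma receptor, at 0.15 (adjusted p = 0.75) and Rela, a subunit of NF-kappaB, at −0.18 (adjusted p = 0.771).

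Cells that use or make chemokines were checked by marker lists. The lists of blood-borne cells held 0 genes at an unadjusted p under 0.05. For monocytes and neutrophils the counts were 7 lower and 4 higher of 11 genes, with list means of 4.54 to 4.78 in MLC/SOD1G93A arrays and 4.61 to 4.79 in FVB arrays, and for T and NK cells 6 and 5 of 11, with means of 4.27 to 4.36 in MLC/SOD1G93A arrays and 4.30 to 4.44 in FVB arrays. In each of these 2 lists 2 genes were above the dim reference. B cells (3 lower and 4 higher of 7), dendritic cells (2 and 5 of 7) and border macrophages (4 and 4 of 8) had 0 genes at that threshold.

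Schwann cell markers were 8 of 9 higher at an unadjusted p under 0.05 (means 7.74 to 8.27 in MLC/SOD1G93A arrays and 7.38 to 7.83 in FVB arrays). Oligodendrocyte markers were 7 of 9 lower at that threshold. Of 9 astrocyte markers 8 were lower, 3 of them at that threshold. Caudal Hox genes were 8 of 10 higher at it (6.16 to 6.76 in MLC/SOD1G93A arrays and 5.21 to 6.35 in FVB arrays). Over all clusters 3.08% were lower and 3.61% higher at that threshold. Neuronal markers averaged 10.05 to 10.12 in MLC/SOD1G93A arrays and 10.01 to 10.17 in FVB arrays, and 7 of 8 motor neuron markers were above the dim reference. Of these 8 markers 7 were lower and 1 higher, 0 at an unadjusted p under 0.05 (median difference −0.090). Xist was high on MLC/SOD1G93A replicates 3 and 4 and on FVB replicate 4. There Uty, a gene of the Y chromosome, was at 3.33 to 3.78, against 7.90 to 8.16 on the other arrays. By these genes both groups were of mixed sex, in unequal shares. Without these 3 arrays 4 members had an unadjusted p under 0.05. Without the 4 arrays of high sensory ganglion markers 5 did, and with the caudal Hox mean in the fit 4 did, Ccl17 and Cxcl1 lower and Ccr7 and Ccl24 higher. The caudal Hox mean largely followed genotype, so the fit with it cannot separate cord position from genotype. The part of these lists in the members' values was not tested.

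**Figure D4:**
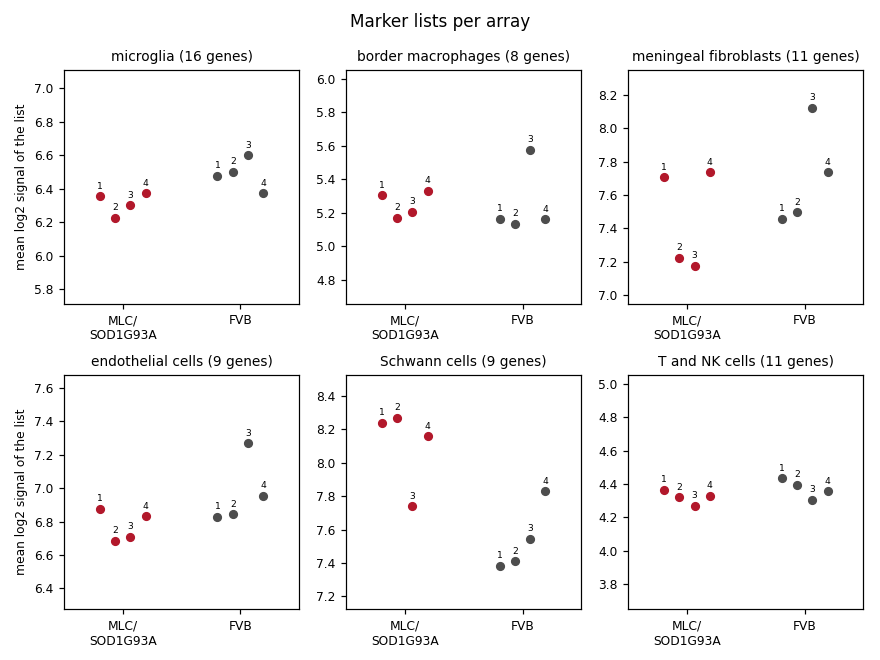
Mean log2 signal per array of 6 marker lists, MLC/SOD1G93A left and FVB right, with replicate numbers at the points and the same height in each panel. The microglia means are 6.22 to 6.37 in MLC/SOD1G93A and 6.37 to 6.60 in FVB and just meet, the Schwann cell means of 3 MLC/SOD1G93A arrays lie above every FVB array, and the T and NK cell means overlap.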

How the data were processed

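Ventral lumbar cord RNA of 8 samples was measured on Affymetrix Mouse Gene arrays, 1 array each. The authors deposited log2 signals per transcript cluster, summarized by RMA with sketch quantile normalization (per the methods), and the submitters' processing notes list Affymetrix Expression Console. The sources used here gave no versions, filters or genome build. RMA brings the arrays to nearly equal distributions (medians 5.33 to 5.37), which would hide a change shared by most transcripts. Arrays have no read depth, so precision rests on how many there are.

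All 41345 clusters, without further normalization, were fitted in limma 3.58.1 (R 4.3.3) by genotype alone, unpaired as in the methods, with Benjamini-Hochberg adjustment. Single genes were also tested by an exact permutation test over the 8 arrays. Clusters had 1 symbol (23521), several (1820) or none (16004). Array pairs correlated at 0.978 to 0.986 within and 0.977 to 0.987 between genotypes, and 0 pairs were identical. Alternatives were the methods' t-test (the unpaired one-way analysis of variance of both groups), another normalization, filter, variance prior, weights, replicate block, covariates and leaving out each array. Leaving out the arrays of high Xist or of high sensory ganglion markers was added after seeing the data.

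The members and gene lists were chosen with earlier results of these data known. Values on every array were given for members with an unadjusted p under 0.05, the 12 of highest mean signal, and chosen ligand and receptor sets. From each list around the chemokines the 3 genes of lowest p were named, while Adam10 and the 4 microglia genes, which that rule does not take, were picked with their values in view. The fit was tested on simulated data with 200 changed clusters, whose shifts were larger than any difference among the members. How often differences as small as theirs would be found was not tested.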

Additional observations from a re-analysis of the deposited data

Results flagged for a closer look

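Ccl27a had a log2 signal of 8.07 in MLC/SOD1G93A replicate 1, far from the other 3 arrays of its group, which lay between 7.40 and 7.45. The gap exceeded Dixon's 95% critical value for 4 samples, in 1 of 46 groups checked (23 genes in both genotypes). Chance alone would mark about 1 in 20 groups. MLC/SOD1G93A replicate 1 was also the highest of its group on every cluster of several symbols that held Ccl27a or Ccl27b. On 17424360, with Ccl27b among its symbols, it had 8.80, against 6.06 to 6.32 on the other MLC/SOD1G93A arrays. FVB arrays lay there at 5.99 to 6.35. On the other 1-symbol Ccl27a cluster it had 6.08, within the 6.05 to 6.38 of its group. The cause was not tested.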

How the results depend on the processing

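No member passed the adjusted threshold under any alternative run. Against the main count of 8 members with a limma unadjusted p under 0.05, the methods' t-test gave 4, the caudal Hox mean as a covariate 4, and leaving out the arrays of high Xist 4 or of high sensory ganglion markers 5 (both chosen after seeing the data). Leaving out 1 array gave 4 to 8, and fewer samples enter those fits. The caudal Hox mean largely followed genotype, so the count with that covariate cannot separate cord position from genotype. The other alternatives gave 6 to 9. The median difference of the members kept its sign throughout. The replicate numbers did not pair the samples: same-numbered deviations correlated at −0.044, 0.18, −0.083 and 0.24, and 2 of 4 numbers matched best with their own. With the replicate number as a block 7 members had an unadjusted p under 0.05 and 0 an adjusted one. Some signs turned, and the cause was not tested. With Xist as a block Ccl5 was −0.062 and Cxcl10 −0.026, and with the caudal Hox covariate Ccl5 was −0.21 and Ccr2 0.012. Without the arrays of high Xist Ccl5 was −0.0016 and Cxcl10 −0.088, and without those of high sensory ganglion markers Cxcl10 was −0.011, Cxcl16 −0.16 and Ackr1 −0.028. Leaving out 1 array gave −0.12 to 0.13 for Ccl5, −0.092 to 0.15 for Cxcl10, −0.10 to 0.16 for Cxcl16 and −0.13 to 0.032 for Cxcr4. Genes at or under the dim reference have mean signals no higher than the 95th percentile of the clusters for genes of the nose. Whether their transcripts were detected was not tested.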
